A study of Mus musculus with 12 samples.

Results

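The enzymes that hydroxylate and crosslink collagen were followed across RNA sequencing of cultured mouse cardiac fibroblasts with intact Smad7 or after Cre was given to delete it. The 10 genes were chosen by symbol from 35275 genes in the count table: the lysyl oxidases Lox, Loxl1, Loxl2, Loxl3 and Loxl4, the lysyl hydroxylases Plod1, Plod2 and Plod3, and the prolyl 4-hydroxylase α subunits P4ha1 and P4ha2. All 10 passed the filter on low counts, which 15150 genes passed. The cells came from hearts of 12-week-old C57BL/6 mice whose Smad7 alleles were floxed, were used at passage 2, and all received adenovirus at a multiplicity of infection of 100 for 48 hours. Control cells received a virus that the labels describe as GFP virus and the study's methods as an empty one, and are titled wild type although their Smad7 alleles were floxed. Smad7-KO cells received Cre virus, which acts in any infected cell whatever its type. Each genotype was left unstimulated or was given TGF-β1 at 10 ng/ml, for 2 hours by the sample labels or 4 hours by the treatment protocol, with 3 libraries in each of 4 conditions. The labels do not say whether the libraries of a condition came from separate animals or cultures, so p values measure the spread between these libraries, which may be technical.

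Collagen chains are modified in the endoplasmic reticulum before they fold into a triple helix. Prolyl 4-hydroxylase, a complex of α subunits with P4hb (protein disulfide isomerase), hydroxylates prolines that stabilize the helix, and the lysyl hydroxylases hydroxylate lysines that later take part in crosslinks. After secretion, the copper-dependent lysyl oxidases oxidize lysine and hydroxylysine side chains of collagen and elastin, and the products condense into the crosslinks that stiffen scar and myocardium.

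For orientation in the sequences next to these genes, the 250 bases before the RefSeq start are shown for the members called in opposite directions in unstimulated Smad7-KO cells for which a promoter entry was found, Plod1 (GRCm38.p6, chr4:147936777-147937026, minus strand) and P4ha1 (chr10:59323046-59323295, plus strand). Promoter entries were found for 5 of the 10 members (Loxl4, Plod1, Plod3, P4ha1 and P4ha2). Capitals mark CAGAC, the core of the Smad-binding element, and ACGTG and GCGTG, both forms of the hypoxia response element core, each read on either strand, so that the reverse complement of CAGAC appears as GTCTG, that of ACGTG as CACGT and that of GCGTG as CACGC.
Plod1: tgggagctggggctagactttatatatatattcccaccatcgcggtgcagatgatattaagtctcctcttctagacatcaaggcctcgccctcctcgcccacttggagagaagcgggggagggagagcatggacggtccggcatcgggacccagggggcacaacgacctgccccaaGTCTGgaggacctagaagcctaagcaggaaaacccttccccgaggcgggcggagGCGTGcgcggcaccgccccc
P4ha1: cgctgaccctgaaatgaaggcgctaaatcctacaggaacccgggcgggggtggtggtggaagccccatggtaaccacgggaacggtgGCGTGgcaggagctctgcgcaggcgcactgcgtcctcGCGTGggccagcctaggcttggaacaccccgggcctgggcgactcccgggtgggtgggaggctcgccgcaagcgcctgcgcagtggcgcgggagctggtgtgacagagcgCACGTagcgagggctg
The Plod1 window held CAGAC and GCGTG at 1 place each, and the P4ha1 window held ACGTG at 1 and GCGTG at 2 places. CAGAC was also present at 1 place in the Loxl4 window and ACGTG at 1 place each in the windows of Plod3 and P4ha2. GCGTG was present at 1 place in the Loxl4, 2 in the P4ha2 and 3 in the Plod3 window, so that all 5 windows held a form of the hypoxia response element core. Of 32851 promoter windows of this length, 42.2% held CAGAC, 16.6% ACGTG and 28.2% GCGTG. These are letter matches in one window and say nothing about binding.

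Library totals ranged from 19056916 to 25371321 counts. Levels are FPKM computed from the counts with TMM scaling between libraries, and depend on the gene lengths in the file. Smad7 checked the labels: without TGF-β1 it was 17.4 ± 0.688 FPKM (SD, n = 3) in control and 6.86 ± 0.346 FPKM in Smad7-KO, and with TGF-β1 34.0 ± 0.988 and 17.9 ± 1.38 FPKM. Counted over the whole gene, Smad7 RNA in Smad7-KO cells stood at 39.5% and 52.7% of control, and with TGF-β1 their Smad7 level was near that of unstimulated control. Control replicate 2 of the unstimulated group stood apart in gene length, with 23.0% of its counts in genes of the upper length tertile against 30.7% to 40.9% in the other 11 libraries. This share ran from 23.0% to 40.3% in control and from 36.1% to 40.9% in Smad7-KO libraries. In mean correlation with its own group, replicate 2 (0.951) was close to replicate 3 (0.958), with replicate 1 at 0.974. Summed levels of 8 macrophage markers, Lyz2 and C1qa among them, ran from 10506 to 18227 in unstimulated control and from 14995 to 16792 in unstimulated Smad7-KO libraries, above the sums of 8 fibroblast markers in the same libraries (1813 to 2686 and 1465 to 1486). Sums of 8 endothelial markers fell between 69.3 and 86.0 in all control libraries and between 8.44 and 9.84 in all Smad7-KO libraries, and no marker of any list was at 0 in all libraries. In bulk RNA, fewer cells of a type and less RNA per cell cannot be told apart.

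Among the members, Lox was the most abundant in every condition and ranked 108 of the 15150 tested genes by mean FPKM. P4ha1 and Plod2 followed in all conditions, in that order except in TGF-β1 control, where Plod2 (169 FPKM) was above P4ha1 (153 FPKM) without overlap of their libraries. Loxl4 was last in every condition, with 3.11 FPKM in unstimulated control. In the middle of the order, Plod3 (71.1 FPKM) and Loxl1 (70.1 FPKM) had overlapping libraries in unstimulated control, as did P4ha2 (20.2 FPKM) and Loxl3 (17.1 FPKM). The Loxl4 counts were small enough, 110 to 481 per library, that its changes carried the widest errors.

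**Figure D1:**
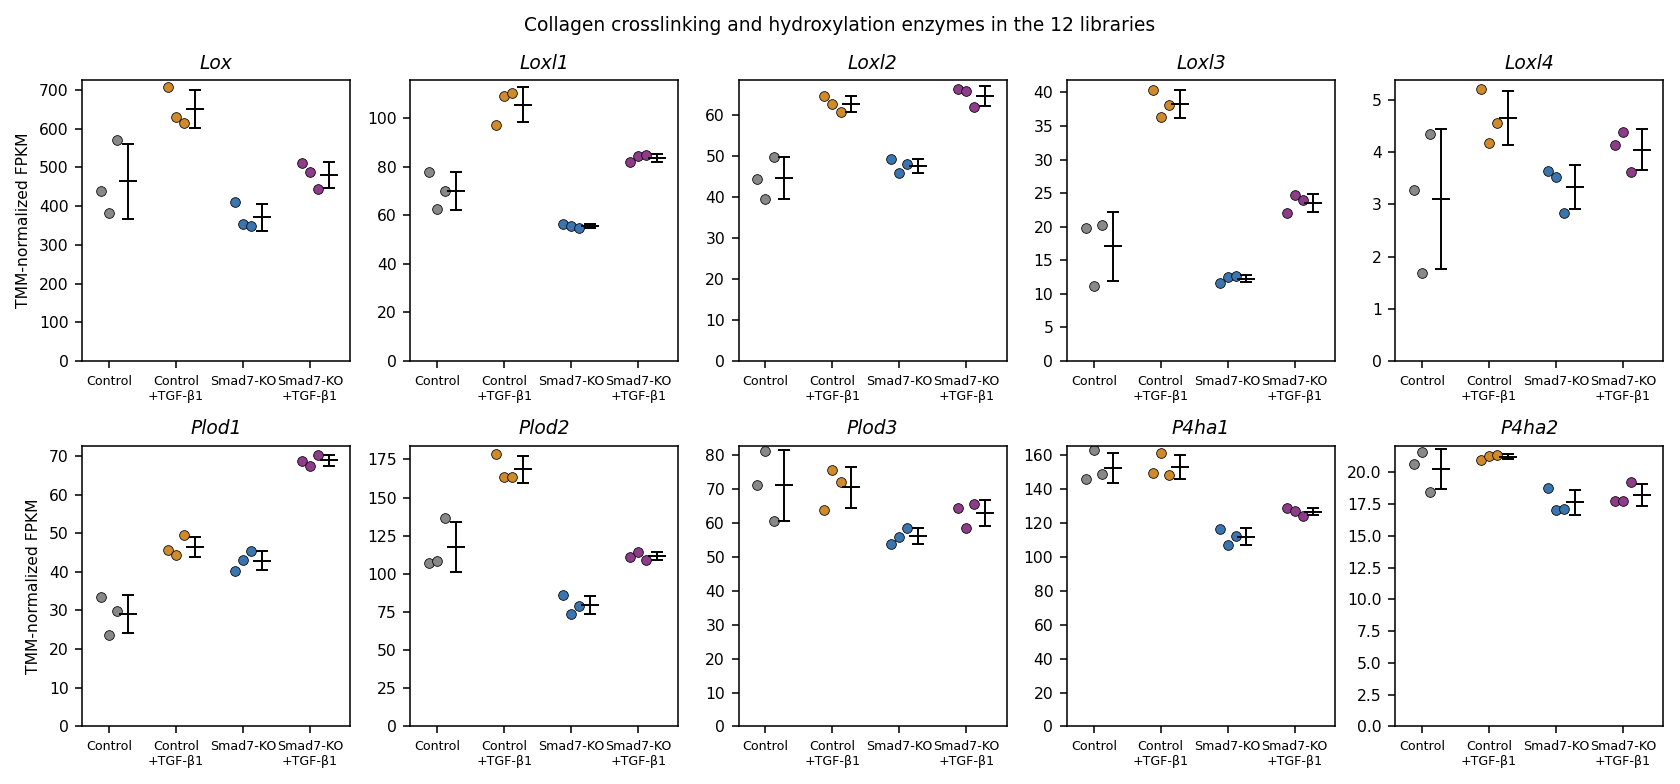
Levels of the 10 members in TMM-normalized FPKM on axes from 0, with 1 point per library and the mean with its SD beside each group of 3. Plod1 is the member whose 3 Smad7-KO libraries lie above the 3 control libraries at both treatments, while the Smad7-KO points of Loxl1, Plod2 and P4ha1 lie below their controls.

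The comparison of Smad7-KO with control cells without TGF-β1 asked how the enzymes differ when Smad7, the inhibitory Smad, is reduced. Plod1 was higher in Smad7-KO, and Loxl1, Plod2 and P4ha1 were lower, at an adjusted p of 0.05 or less (edgeR's quasi-likelihood test, adjusted over all tested genes by Benjamini-Hochberg). This is 4 of 10 members, where 25.8% of all tested genes were called (12.1% higher and 13.7% lower). The median log2 fold change over the 10 members was -0.33, beside -0.02 over all tested genes. In a fit to the 6 compared libraries alone, 0 of the 10 members passed, where 660 genes passed over all, against 3907 in the fit to all 12. The libraries of the groups did not overlap for 5 members, against 41.3% of tested genes.

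Plod1 encodes lysyl hydroxylase 1, which modifies helical lysines, and lies on chromosome 4 (147909753 to 147936767, minus strand, GRCm38). Its FPKM was 33.5, 23.7 and 29.9 in the unstimulated control libraries and 40.3, 43.1 and 45.3 in the unstimulated Smad7-KO libraries. The groups did not overlap, and the log2 fold change was 0.56 (SE 0.121, adjusted p = 0.00870). In TGF-β1-stimulated cells the same comparison gave 45.7, 44.3 and 49.4 in control and 68.8, 67.4 and 70.3 in Smad7-KO, a log2 fold change of 0.57 (SE 0.121, adjusted p = 0.0107). Of 8 macrophage markers, 4 were called higher in Smad7-KO at each treatment, beside 12.1% of all tested genes without TGF-β1 and 5.72% with it. These 4 moved in the same direction as Plod1, and their part in its change was not tested.

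Plod2 encodes lysyl hydroxylase 2, which modifies lysines of the telopeptides that form the most stable crosslinks, and lies on chromosome 9 (92542223 to 92608428, plus strand). The control libraries gave 107, 109 and 137 FPKM and the Smad7-KO libraries 86.0, 74.0 and 78.6 FPKM. All Smad7-KO values were below all control values, and the level in Smad7-KO was 67.7% of control (log2 fold change -0.56, SE 0.114, adjusted p = 0.00640). With TGF-β1 the values were 179, 163 and 164 in control against 111, 114 and 109 in Smad7-KO, 66.1% of control (log2 fold change -0.60, SE 0.114, adjusted p = 0.00620). Plod1 and Plod2 stood on opposite sides of control at both treatments, comparisons that share no library. Endothelial marker sums were also lower in Smad7-KO. Of the 8 fibroblast markers, 3 were called lower and 2 higher at each treatment. Their median log2 fold change was 0.11 without TGF-β1 and -0.05 with it. Their summed level, though, was lower in every Smad7-KO library, at 1465 to 1486 against 1813 to 2686 FPKM without TGF-β1. With it the sums were 1410 to 1474 against 1705 to 2075 FPKM. Of all tested genes, 13.7% were lower and 12.1% higher without TGF-β1, and 7.23% and 5.72% with it. The part of either list in the lower Plod2 was not tested.

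The ratio of Plod2 to Plod1 level made this divergence visible within each library. It was 3.20, 4.58 and 4.57 in unstimulated control and 2.13, 1.72 and 1.73 in unstimulated Smad7-KO libraries. With TGF-β1 it was 3.91, 3.68 and 3.32 in control and 1.61, 1.69 and 1.55 in Smad7-KO. All Smad7-KO ratios were below all control ratios. This had to follow, because Plod1 was higher and Plod2 lower in every Smad7-KO library, so the ratio adds no further support. For 3 libraries against 3 the smallest p of a two-sided exact permutation test is 0.1. Plod1 made up 13.4% ± 2.36 (SD, n = 3) of the summed lysyl hydroxylase level in unstimulated control and 24.0% ± 1.44 in unstimulated Smad7-KO cells.

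**Figure D2:**
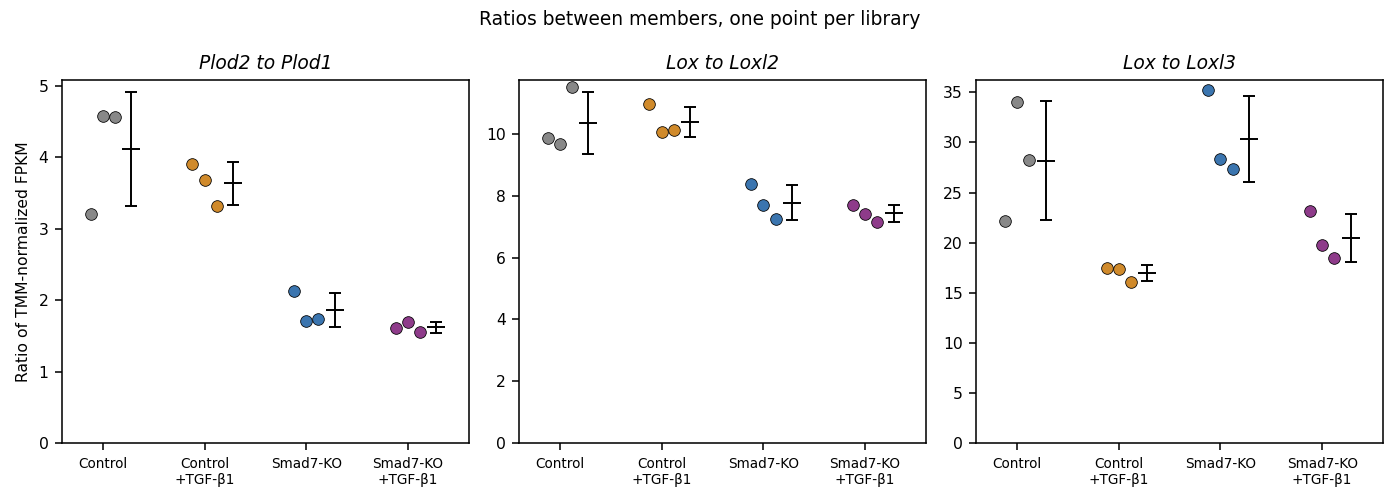
Ratios between member levels (TMM-normalized FPKM over TMM-normalized FPKM), with 1 point per library and the mean with its SD in each condition. The Plod2 to Plod1 and Lox to Loxl2 ratios are lower in Smad7-KO at both treatments, while the Lox to Loxl3 ratio is lower with TGF-β1 in both genotypes.

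Plod3, the lysyl hydroxylase that also carries glycosyltransferase activity (chromosome 5, 136987019 to 136996648), was 71.4, 81.3 and 60.6 FPKM in unstimulated control and 53.9, 56.0 and 58.6 FPKM in Smad7-KO libraries. The groups did not overlap, but the log2 fold change of -0.34 (SE 0.118) had an adjusted p of 0.0523. With TGF-β1 the groups overlapped and the log2 fold change was -0.17 (adjusted p = 0.362). Plod3 shares 529 exon bases, 11.7% of its exons, with Znhit1 on the opposite strand, and whether counting used strand is not given in the sources used here.

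P4ha1 encodes the main α subunit of prolyl 4-hydroxylase and lies on chromosome 10 (59323296 to 59373304, plus strand). It was 146, 163 and 149 FPKM in unstimulated control and 117, 107 and 112 FPKM in unstimulated Smad7-KO libraries. No library overlapped, and Smad7-KO stood at 73.4% of control (log2 fold change -0.45, SE 0.0904, adjusted p = 0.00640). In TGF-β1-stimulated cells it was 149, 161 and 148 in control and 129, 127 and 124 in Smad7-KO, with a log2 fold change of -0.27 (SE 0.0903) and an adjusted p of 0.0703. P4ha2, the second α subunit (chromosome 11, 54100095 to 54131665), ran from 18.5 to 21.6 FPKM in unstimulated control and 17.0 to 18.8 FPKM in Smad7-KO. Its log2 fold changes were -0.20 without TGF-β1 and -0.22 with it, with adjusted p of 0.119 and 0.140. P4ha1 made up 88.3% of the summed level of both α subunits in unstimulated control and 86.4% in unstimulated Smad7-KO.

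Loxl1, the lysyl oxidase best known for elastin fiber assembly (chromosome 9, 58287723 to 58313212, minus strand), was 78.0, 62.5 and 69.8 FPKM in unstimulated control and 56.3, 55.6 and 54.6 FPKM in Smad7-KO libraries. Smad7-KO was lower in all libraries (log2 fold change -0.34, SE 0.10, adjusted p = 0.0329). Under TGF-β1 it was 97.1, 109 and 110.2 in control and 81.8, 84.2 and 84.9 in Smad7-KO, a log2 fold change of -0.33 (adjusted p = 0.0483). Both calls were close to the threshold: the first was lost in 13 and the second in 14 of 22 alternative analyses, with log2 fold changes from -0.41 to -0.24 and from -0.39 to -0.30.

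Lox itself (chromosome 18, 52516069 to 52529867, minus strand) did not pass the test. It was 439, 381 and 572 FPKM in unstimulated control and 412, 353 and 347 FPKM in Smad7-KO libraries, which overlapped (log2 fold change -0.32, adjusted p = 0.120, 95% interval -0.65 to 0.01). With TGF-β1 it was 706, 630 and 614 in control and 511, 488 and 443 in Smad7-KO, without overlap (log2 fold change -0.44, SE 0.151, adjusted p = 0.0797). Without control replicate 2, the unstimulated library that stood apart, Lox passed the test in both comparisons, with log2 fold changes of -0.44 (adjusted p = 0.0292) and -0.42 (adjusted p = 0.0183). With the gene-length trend removed, Lox also passed in both, with -0.52 (adjusted p = 5.4e-04) and -0.54 (adjusted p = 4.4e-04), and in the 6 TGF-β1 libraries alone it gave -0.43 (adjusted p = 0.0105). Control replicate 3, which held the highest Lox value of its group, moved the unstimulated log2 fold change to -0.14 when left out.

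Loxl3 (chromosome 6, 83034173 to 83052562, plus strand), a lysyl oxidase with scavenger receptor domains, was 19.8, 11.2 and 20.3 FPKM in unstimulated control and 11.7, 12.4 and 12.7 FPKM in Smad7-KO libraries. The low value came from control replicate 2, and the log2 fold change of -0.48 had an adjusted p of 0.0697. Without that library it was -0.70 (adjusted p = 2.5e-04), and without control replicate 3 it was -0.33 (adjusted p = 0.137). In TGF-β1-stimulated cells the values were 40.4, 36.3 and 38.1 in control and 22.0, 24.7 and 24.0 in Smad7-KO, 61.6% of control (log2 fold change -0.70, SE 0.181, adjusted p = 0.0264). That call was lost when any 1 of the 6 compared libraries was left out, and the log2 fold change stayed between -0.73 and -0.65 whichever of the 12 libraries was left out. Loxl3 shares 535 exon bases with Htra2 on the opposite strand.

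Loxl2, which also oxidizes collagen IV of basement membranes (chromosome 14, 69609068 to 69695834), did not differ detectably with Smad7. It was 44.5, 39.4 and 49.7 FPKM in unstimulated control and 49.2, 45.8 and 48.0 FPKM in Smad7-KO libraries (log2 fold change 0.10, 95% interval -0.12 to 0.31, adjusted p = 0.461). With TGF-β1 it was 64.5, 62.6 and 60.7 against 66.2, 65.9 and 61.8, a log2 fold change of 0.05 (adjusted p = 0.779). The ratio of Lox to Loxl2 was accordingly lower in Smad7-KO, at 7.77 ± 0.568 (SD, n = 3) against 10.3 ± 1.01 in unstimulated cells. Loxl4 (chromosome 19, 42593982 to 42612813) was 3.28, 1.68 and 4.35 FPKM in unstimulated control and 3.63, 3.52 and 2.84 FPKM in Smad7-KO, and its interval of the log2 fold change ran from -0.48 to 0.67.

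In TGF-β1-stimulated cells, 4 of 10 members passed the test between Smad7-KO and control, Plod1 as higher and Loxl1, Loxl3 and Plod2 as lower, where 12.9% of all tested genes were called (5.72% higher and 7.23% lower). Groups did not overlap for 7 members, against 44.9% of tested genes. The members' median was -0.25 and that of all tested genes -0.02.

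The comparison of TGF-β1 with no stimulation asked which of these enzymes respond within hours. In control cells, 5 of 10 members rose and 0 fell, where 8.37% of all tested genes were called (5.04% higher and 3.33% lower). The risers were the lysyl oxidases Loxl1, Loxl2 and Loxl3 and the lysyl hydroxylases Plod1 and Plod2. In a fit to these 6 libraries alone, 0 passed. Groups did not overlap for 6 members, against 19.9% of tested genes. The members' median log2 fold change was 0.51, beside -0.03 over all tested genes. In Smad7-KO cells the same comparison, which shares no library with the first, called Loxl1, Loxl2, Loxl3, Plod1 and Plod2 as higher, where 10.2% of all tested genes were called (5.33% higher and 4.9% lower). There the groups did not overlap for 8 members, against 39% of tested genes.

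Loxl3 had the largest rise among the members in both genotypes. From the library values given above, its level with TGF-β1 was 224% of the unstimulated level in control (log2 fold change 1.16, SE 0.183, adjusted p = 0.00169) and 192% in Smad7-KO (0.94, SE 0.182, adjusted p = 0.00591). Without unstimulated control replicate 2 the rise in control was 0.93 (adjusted p = 2.4e-05), and without replicate 3 of that group 1.31 (adjusted p = 5.8e-04). Plod1 rose to 160% of the unstimulated level in both genotypes (adjusted p = 0.00393 in control and 0.00324 in Smad7-KO), and Loxl1 by a log2 fold change of 0.59 in both (adjusted p = 0.00291 and 0.00235). Loxl2 rose by 0.49 in control (SE 0.0995, adjusted p = 0.00857) and 0.44 in Smad7-KO (SE 0.0994, adjusted p = 0.0139). Plod2 rose by 0.52 in control (adjusted p = 0.0133) and 0.49 in Smad7-KO (adjusted p = 0.0167). The Plod2 call in control was lost without replicate 1 of either control group. The Loxl2 and Plod2 calls in Smad7-KO were lost without replicate 2 or 3 of the unstimulated or replicate 1 or 2 of the TGF-β1 group, with log2 fold changes of 0.41 to 0.47 for Loxl2 and 0.44 to 0.55 for Plod2 over all left-out libraries.

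Lox was above its unstimulated libraries in every TGF-β1 library of the same genotype, but did not pass the test. The log2 fold changes were 0.49 in control (SE 0.151, adjusted p = 0.0745) and 0.37 in Smad7-KO (SE 0.151, adjusted p = 0.174). Loxl4 gave 0.57 (adjusted p = 0.246) and 0.28 (adjusted p = 0.688). Plod3, P4ha1 and P4ha2 did not pass in either genotype, with log2 fold changes from -0.01 to 0.07 in control and 0.05 to 0.18 in Smad7-KO. The 95% interval of the P4ha1 change in control ran from -0.20 to 0.20. Summed over each family, lysyl oxidase levels went from 599 ± 111 to 861 ± 45.8 FPKM (SD, n = 3) in control and from 489 ± 37.4 to 656 ± 35.0 FPKM in Smad7-KO, while the P4ha1 and P4ha2 sum was 173 and 174 FPKM in control.

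**Figure D3:**
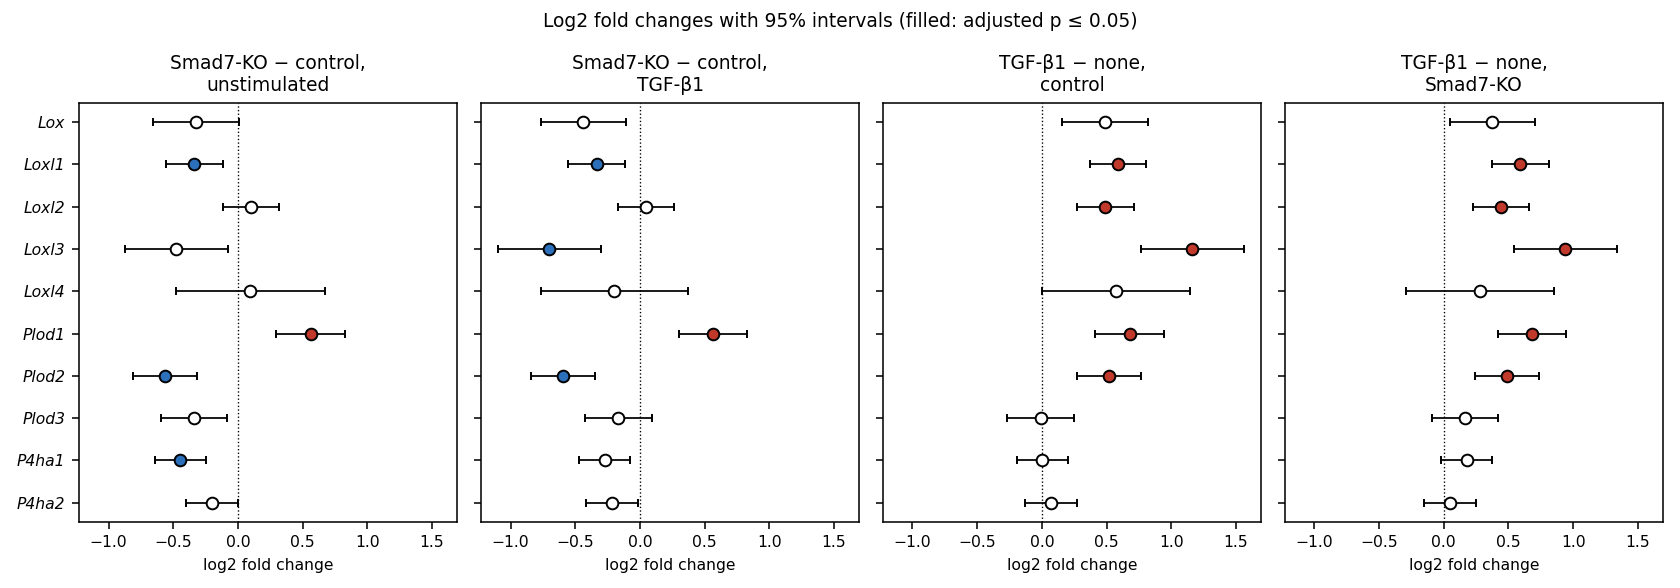
Log2 fold changes of the 10 members in 4 comparisons, with bars for 95% intervals and filled points where the adjusted p of edgeR's quasi-likelihood test was 0.05 or less. Loxl1, Loxl2, Loxl3, Plod1 and Plod2 are filled in both TGF-β1 comparisons and Plod1 and Plod2 lie on opposite sides of 0 in both Smad7-KO comparisons.

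The interaction tested whether the Smad7-KO effect differed between treatments, which is the same as whether the TGF-β1 effect differed between genotypes. By edgeR's quasi-likelihood test 0 members passed, 0 had an unadjusted p under 0.05, and 0 passed by DESeq2 or limma, where 0.0198% of all tested genes were called. The members' interaction estimates ran from -0.29 for Loxl4 to 0.18 for P4ha1. For Plod1 the estimate was 0.00 with a 95% interval of -0.37 to 0.38, and for Plod2 it was -0.03 with an interval of -0.38 to 0.32. Differences within these intervals were not detectable with 3 libraries per condition.

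**Figure D4:**
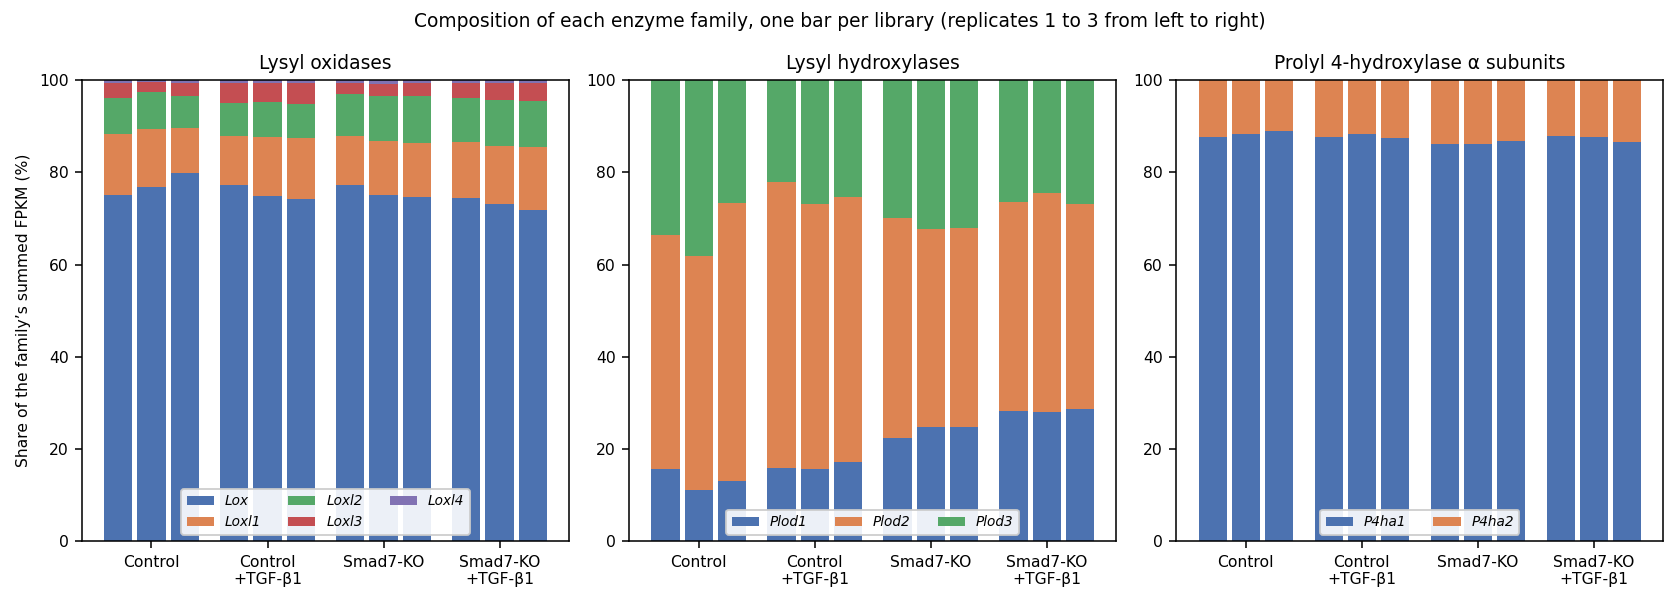
Each member's share of its family's summed TMM-normalized FPKM, in percent, with 1 bar per library and replicates 1 to 3 from left to right in each condition. Lox holds 73.2% to 77.3% of the lysyl oxidase sum as condition means, while the Plod1 share goes from 13.4% in unstimulated control to 28.3% in TGF-β1 Smad7-KO.

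Among the lysyl hydroxylases, Plod3 made up 32.8% of the sum in unstimulated control and 24.7% in TGF-β1 control, and 31.4% and 25.9% in Smad7-KO. Plod2 made up 53.9% and 59.0% in control and 44.5% and 45.8% in Smad7-KO. Over the 12 libraries, the gene whose log2 CPM was most like Plod1 of 12067 genes searched was Sh3bp2, a signaling adaptor of hematopoietic cells (Pearson r = 0.991). For Plod2 it was Wwtr1, a Hippo pathway coactivator also called TAZ (r = 0.994), and for Lox it was Cdh11, a mesenchymal cadherin (r = 0.981). Loxl4 was most like Col5a1 (r = 0.968), and P4ha1 most like Kdelr3, a receptor that retrieves proteins to the endoplasmic reticulum (r = 0.982). The nearest genes of Loxl1, Loxl2, Loxl3, Plod3 and P4ha2 were Rhbdf1, AI504432, Ndel1, Unc119 and Glt8d1, with r from 0.959 to 0.986. Among the 45 pairs of members r ran from -0.444 for Plod1 with P4ha1 to 0.962 for Loxl1 with Loxl3. These values are descriptions over libraries that fall into 4 conditions and share depth and composition.

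The other genes of collagen maturation were taken from lists of partners in the endoplasmic reticulum, of lysyl oxidase processing and tethering, of other crosslinkers, of substrates and of oxygen sensing. In unstimulated Smad7-KO cells 7 of 15 tested partners in the endoplasmic reticulum were lower and 1 was higher, where 13.7% of all tested genes were lower and 12.1% higher. The fit to the 6 compared libraries alone called 2 of the 15, and 660 genes over all. Of 6 tested epicardial and mesothelial markers 5 were also called lower in this comparison, with log2 fold changes of -4.71 to -0.49 over the 6 and summed levels of 122 to 139 FPKM in control and 69.6 to 82.5 FPKM in Smad7-KO libraries, and their part in the lower partners was not tested. Fkbp10, a chaperone that works with lysyl hydroxylase 2, was at 52.4% of control (adjusted p = 0.00136). P3h4, a component of the complex that modifies helical lysines, was at 55.4% (adjusted p = 0.00200), and Crtap, of the prolyl 3-hydroxylase complex, at 65.4% (adjusted p = 0.00510). P4hb, the β subunit of prolyl 4-hydroxylase, was at 77.4% (adjusted p = 0.0295). Colgalt1, which adds galactose to hydroxylysine, was the higher one (log2 fold change 0.47, adjusted p = 0.0276). P4ha3, a less abundant α subunit, gave -0.79 with an adjusted p of 0.0980.

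With TGF-β1, 5 of these 15 were lower in Smad7-KO and 0 higher, where 7.23% of all tested genes were lower. The 5 were Fkbp10, Fkbp14, P3h1, P3h4 and Serpinh1, the collagen chaperone HSP47, with log2 fold changes from -0.85 to -0.54. The 6 compared libraries alone called 12, and 4453 genes over all against 1961 in the fit to all 12 libraries. P4hb gave -0.29 (adjusted p = 0.0975) and P4ha3 -0.93 (adjusted p = 0.0940). TGF-β1 itself called 0 of the 15 in either genotype by edgeR's test, with medians of 0.10 in control and 0.07 in Smad7-KO. Of all tested genes 8.37% were called in control and 10.2% in Smad7-KO. The count of 0 is near these shares and is no result about the partners. Left-out libraries moved these counts from 5 to 11, 4 to 12, 0 to 5 and 0 to 2 of 15 in the comparisons in the order given. Without unstimulated control replicate 2, the Smad7-KO comparisons called 11 and 12, and over all genes 3013 and 4465. Without replicate 3 of that group, TGF-β1 called 5 in control, and 3449 over all genes against 1268 as reported.

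Of 12 tested genes for lysyl oxidase processing, tethering and copper supply, 5 were lower and 1 higher in unstimulated Smad7-KO, beside 13.7% and 12.1% of all tested genes. Pcolce, an enhancer of procollagen C-proteinase, was at 53.2% of control (adjusted p = 0.00168), and the lysyl oxidase scaffolds Fbln5 (fibulin-5) and Efemp2 (fibulin-4) at 52.5% and 59.9%. Fmod and Tll1 were also lower, and the copper importer Slc31a1 was higher. Under TGF-β1 the called genes had the same symbols and directions, beside 7.23% lower and 5.72% higher of all tested genes, with Fbln5 at 41.7% of control. Bmp1, the main protease that activates pro-lysyl oxidase, gave log2 fold changes of -0.03 and -0.04 (adjusted p = 0.871 and 0.829). TGF-β1 raised Postn, which binds Bmp1, by 0.63 in Smad7-KO (adjusted p = 0.0160). In control TGF-β1 called 0 of the 12, which is near the 8.37% of all tested genes called there. Without unstimulated control replicate 3 it called 6, and 3449 over all genes against 1268 as reported. Without that library 10 of the 12 were called in unstimulated Smad7-KO, and 7978 over all genes against 3907 as reported. Over the 22 alternatives, the Slc31a1 call with TGF-β1 was lost in 14, the Efemp2 call with TGF-β1 in 9 and the Postn call in 7.

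Tgm2, the transglutaminase that crosslinks matrix through glutamine, rose with TGF-β1 by 1.11 in control and 1.32 in Smad7-KO on the log2 scale. It was also higher in Smad7-KO at both treatments (0.54, adjusted p = 0.0184, and 0.76, adjusted p = 0.00478). In the 6 unstimulated libraries alone Tgm2 had an adjusted p of 0.0982. Of 6 tested N-proteinases and other crosslinkers, 2 were higher in unstimulated Smad7-KO (Tgm2 and Adamts2), beside 12.1% of all tested genes. Left-out libraries gave 0 to 2. With TGF-β1, 1 of the 6 was higher, beside 5.72% of all tested genes. Among the 11 tested substrates, Eln (elastin), which lysyl oxidases also crosslink, was at 20.4% of control in unstimulated Smad7-KO (2.41 ± 0.207 against 11.8 ± 4.15 FPKM, SD, n = 3) and at 24.2% with TGF-β1. Col1a1, Col1a2 and Col3a1, the main fibrillar chains, did not pass the test in any of the comparisons as fitted, and Col1a1 gave -0.02 in unstimulated and -0.28 in TGF-β1-stimulated Smad7-KO. With the gene-length trend removed, all 3 were lower with TGF-β1, Col1a1 with -0.48 (adjusted p = 0.00687), Col1a2 with -0.23 (adjusted p = 0.0239) and Col3a1 with -0.38 (adjusted p = 0.00506). Without TGF-β1 that setting called Col1a1 (-0.33, adjusted p = 0.0397) and Col3a1 (-0.35, adjusted p = 0.00684) but not Col1a2 (-0.17, adjusted p = 0.0588). In the 6 TGF-β1 libraries alone Col1a1 had an adjusted p of 0.0462. Substrates called lower in Smad7-KO were 2 of 11 without TGF-β1, beside 13.7% of all tested genes. That count is near the share over all genes and is no result about the substrates. It was 5 without control replicate 2, and 1 without control replicate 1 or Smad7-KO replicate 1 or 2. Over all genes these fits called 3013, 2006, 1652 and 1536, in that order. With TGF-β1, 5 of 11 were called lower (2 to 6 over the left-out libraries), beside 7.23% of all tested genes. There Col5a2, Col5a3 and Col11a1 fell by 0.63, 0.84 and 0.86 as log2 fold changes. With the length trend removed, 8 of 11 were called without TGF-β1 and 9 of 11 with it. That setting called 4466 and 3523 genes over all, against 3907 and 1961 as reported.

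Of 19 oxygen-sensing and hypoxia-responsive genes, taken along because Plod2 and P4ha1 are known targets of the hypoxia-inducible factor, 4 were higher and 2 lower in unstimulated Smad7-KO. That is 6 of 19 beside 25.8% of all tested genes, so the count is no result about these genes. In the 6 compared libraries alone 0 of 19 were called, and 660 genes over all. Hif1a, the oxygen-sensitive transcription factor subunit, gave 0.38 (adjusted p = 0.0298) and Egln1, its main prolyl hydroxylase, -0.44 (adjusted p = 0.0143). With TGF-β1, Hif1a and Vhl, the ligase subunit that targets HIF-1α, were the 2 of 19 called, as higher, beside 12.9% of all tested genes. TGF-β1 raised Hif1a, Slc2a1, Vegfa and Vhl in both genotypes and lowered Adm in both and Ndrg1 in Smad7-KO. Of all tested genes, 5.04% rose and 3.33% fell in control, and 5.33% and 4.9% in Smad7-KO. In the 6 control libraries alone Hif1a (adjusted p = 0.169) and Slc2a1 (adjusted p = 0.215) did not pass. In unstimulated Smad7-KO the count was 10 without control replicate 3, where 7978 genes were called over all. It was 1 without replicate 1 of control or of Smad7-KO, beside 2006 and 1652 genes over all. It was 0 without Smad7-KO replicate 2 or 3, beside 1536 and 1533. The Vhl call in Smad7-KO with TGF-β1 was lost in 14 of 22 alternatives, and the Hif1a call without TGF-β1 in 9.

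**Figure D5:**
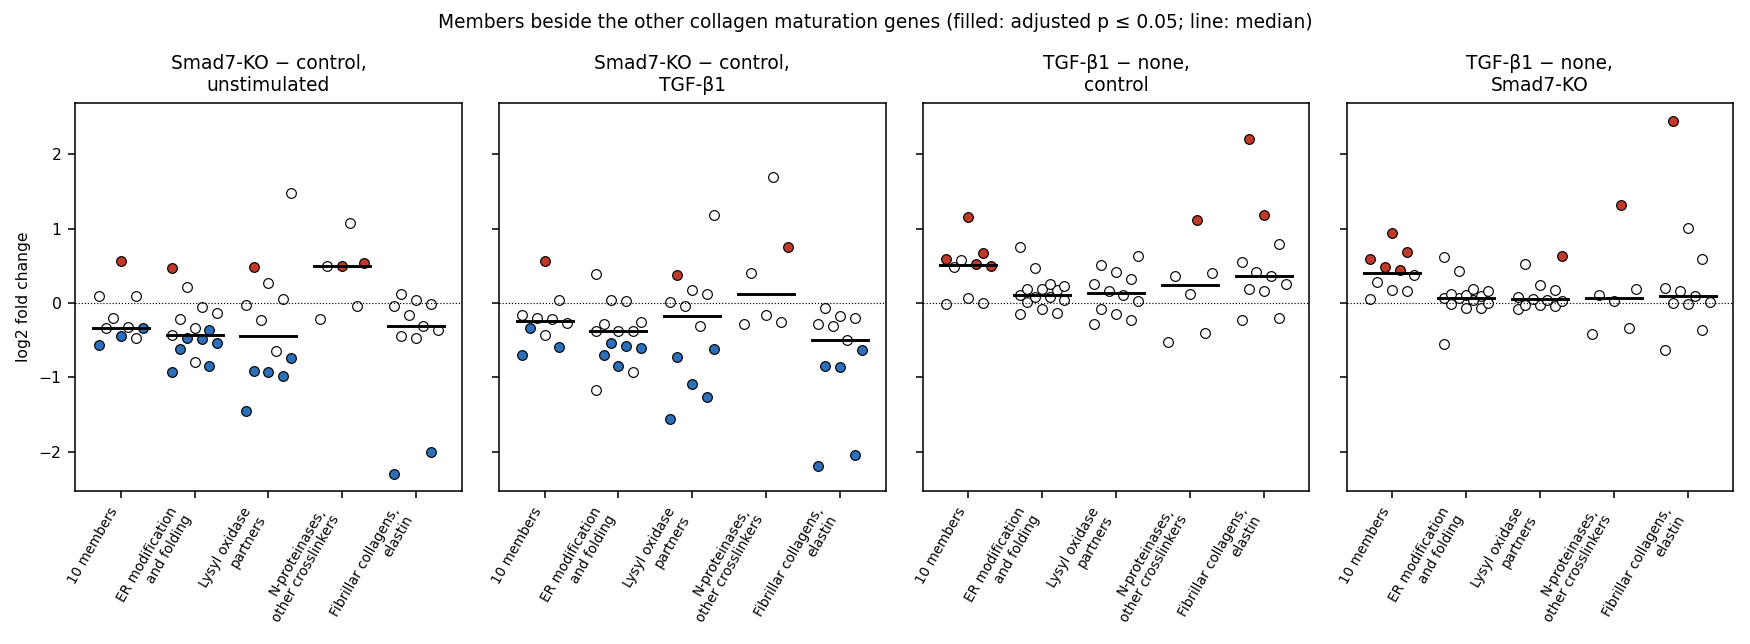
Log2 fold changes of the members and of 4 lists of other collagen maturation genes in 4 comparisons, with 1 point per tested gene, filled red (higher) or blue (lower) where the adjusted p was 0.05 or less, and a line at the median. Members and partners in the endoplasmic reticulum have medians of -0.33 and -0.43 in unstimulated Smad7-KO, and of 0.51 and 0.10 with TGF-β1 in control.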

How the data were processed

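RNA-Seq libraries of poly(A) RNA from cultured cardiac fibroblasts were prepared with the NEBNext Ultra kit. The authors deposited raw read counts per gene, not normalized, and FPKM values, which equalled counts over length and library total for all 35275 genes (relative tolerance 1e-06). The submitters' processing notes name CASAVA, TopHat2 2.0, Cufflinks 2.1.1, HTSeq 0.6.1 and the builds mm10 and GRCm38.p6. Strand use in counting is not given in the sources used here. Both tables also hold gene lengths and positions, which were used as given.

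The tests used edgeR 4.0.16 under R 4.3.3 on these counts: filterByExpr with a minimum count of 10, TMM scaling, and a robust quasi-likelihood fit to all 12 libraries without covariates. Benjamini-Hochberg values at 0.05 or less over 15150 genes were called. Intervals are at 95%. DESeq2 1.42.0 and limma 3.58.1 (log2 of FPKM plus 1 or 0.1) were alternatives, as were other scaling, no filter, removal of a gene-length trend, a replicate block, a fit to the compared libraries only, and leaving out each library. The steps were tested on simulated data. P3h1 to P3h4 and Adgre1 carry older symbols in the tables and were matched by identifier. Promoter sequences are RefSeq's, on GRCm38.p6, with exons from GENCODE M21. No replicate pair agreed within sampling noise.

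The members and lists were chosen with earlier results of these data known. Named were all members, the list genes called in a comparison (up to 4 per list and direction by size, not all printed), P4ha3, P4hb, Bmp1, Col1a1, Col1a2 and Col3a1 in every case, and the gene most correlated with each member (mean log2 CPM of at least 1).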

Additional observations from a re-analysis of the deposited data

How the results depend on the processing

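Plod1 and Plod2 were called in Smad7-KO in all 22 alternatives with TGF-β1 and in 21 of 22 without it, and Loxl1, Loxl3 and Plod1 rose with TGF-β1 in 22 of 22 alternatives in Smad7-KO and 21 of 22 in control. The exception was each time the fit to the 6 compared libraries only. It called 0 of 10 members (4 as reported) in unstimulated Smad7-KO, beside 660 genes over all. With TGF-β1 in control it called 0 (5 as reported), beside 391 genes over all. Both comparisons include the control library that stood apart, and the cause was not tested. The biological coefficient of variation, the relative spread between libraries, was 0.313 in unstimulated control and 0.135 in TGF-β1 control. It was 0.0526 in unstimulated and 0.0978 in TGF-β1-stimulated Smad7-KO. The fit to all 12 libraries shares a common estimate of each gene's spread over these conditions. Its calls against unstimulated control therefore draw on the smaller spread of the other groups. Removing the gene-length trend called 7 members in unstimulated Smad7-KO (Lox, Loxl1, Loxl3, Plod1, Plod2, Plod3 and P4ha1), and 7 with the replicate block as well. Over all genes these settings called 4466 and 4178, against 3907 as reported. Leaving out single libraries gave 3 to 6 and 2 to 6 members for Smad7-KO without and with TGF-β1, 4 to 7 and 3 to 6 for TGF-β1 in control and Smad7-KO, and 0 for the interaction. The count was 2 without any 1 of the 6 libraries compared with TGF-β1, and 3 in the TGF-β1 response of Smad7-KO without unstimulated Smad7-KO replicate 2 or 3 or TGF-β1 Smad7-KO replicate 1 or 2, where Loxl2 and Plod2 lost their calls.

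The values did not settle whether replicate numbers pair the libraries. Deviations of same-numbered libraries correlated by -0.357 to 0.524 over 18 pairs, and 8 of 12 libraries matched their own number best. The 1 pair over 0.1 was control replicate 2 without and with TGF-β1. With the replicate block, 3 members were called in each Smad7-KO comparison, Loxl1 being the one lost, and 5 in each TGF-β1 comparison.

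Counts over all genes ran from 660 to 7978 (3907 as reported) and 883 to 4465 (1961) for Smad7-KO without and with TGF-β1, and from 391 to 3449 (1268) and 985 to 3792 (1550) for TGF-β1 in control and Smad7-KO. The first of these was 7978 without unstimulated control replicate 3 and 3013 without replicate 2 of that group. The interaction called 0 to 14 (3), with 14 by DESeq2. In Smad7-KO with TGF-β1, 44.2% of the called genes were higher as reported and 33.0% or 31.3% by limma with 1 or 0.1 added.

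Signs turned for small changes that passed no test, either as reported or where the sign turned. With the length trend removed, Col1a1 and Col3a1 did pass in unstimulated Smad7-KO, as lower. Removing the length trend, alone and with the replicate block, gave Loxl2 -0.21 and -0.20 in unstimulated Smad7-KO and -0.11 and -0.11 with TGF-β1, Col1a2 -0.17 and -0.17 in unstimulated Smad7-KO and 0.031 and 0.031 for TGF-β1 in Smad7-KO, and P4ha1 -0.081 and -0.077 for TGF-β1 in control. For the interaction these settings gave Loxl2 0.092 and 0.091, Plod2 0.028 and 0.029, and P4ha2 0.0023 and 0.0022. P4ha1 with TGF-β1 in control was -0.0091 by DESeq2, -0.012 with DESeq2 size factors and -0.0016 in the 6 libraries alone, and Col1a2 with TGF-β1 in Smad7-KO was 0.0079, 0.0060 and 0.0081 there and 0.0030 without the filter. Size factors gave the P4ha2 interaction as 7.6e-04. Without the filter, Plod3 with TGF-β1 in control was 0.0056 and the interactions of Loxl1 and Plod1 -0.0035 and -0.0016. By limma with 1 and 0.1 added, Plod3 was 0.026 and 0.027, the Loxl1 interaction -0.067 and -0.067, the Plod1 interaction -0.065 and -0.073, and in unstimulated Smad7-KO Bmp1 was 0.0079 and 0.0084, Col1a1 0.080 and 0.081, and Col3a1 0.0043 and 0.0043. The replicate block gave the Plod1 interaction as -0.0013 and Col1a1 in unstimulated Smad7-KO as 0.020. With single libraries left out, unstimulated Smad7-KO gave Loxl4 -0.20 to 0.41, Bmp1 -0.14 to 0.071, Col1a1 -0.28 to 0.21, Col1a2 -0.026 to 0.26 and Col3a1 -0.20 to 0.094. TGF-β1 in control gave Plod3 -0.11 to 0.097, P4ha1 -0.039 to 0.049 and P4hb -0.035 to 0.11, and Col1a2 with TGF-β1 in Smad7-KO was -0.018 to 0.014. The interactions ran from -0.29 to 0.025 for Lox, -0.090 to 0.093 for Loxl1, -0.14 to 0.043 for Loxl2, -0.37 to 0.019 for Loxl3, -0.61 to 0.014 for Loxl4, -0.12 to 0.14 for Plod1, -0.16 to 0.036 for Plod2 and -0.066 to 0.038 for P4ha2.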
